A study of Mus musculus with 6 samples.

Results

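The 41 genes described here encode the basement membrane, other extracellular matrix proteins, their cell-surface receptors, the enzymes that modify collagen, and kinases and an adaptor of cell-matrix adhesion. They were chosen by symbol, and all 41 were among the 25899 symbols of the count table. Newly made RNA was captured from E14tg2a, a line of mouse embryonic stem cells on the 129SV background, into which a cRAF-ErT2 cassette had been stably introduced. The cassette encodes a fusion of the RAF kinase that 4-hydroxytamoxifen (4OHT) switches on, and so activates ERK. Cells of both groups carried the cassette and had been kept with serum, LIF and 2 µM CHIR99021 (a GSK3 inhibitor), then with serum, LIF and 250 nM PD173074 (an FGF receptor inhibitor) for 24 h. The untreated group received no 4OHT, and the other group received 250 nM for 2 h. Both were labelled with 5 mM ethynyl uridine over the last 15 min. Each group had 3 libraries, 1 from each of the clones a, b and c. What drives the cassette is not given in the sources used here. Cells without the cassette that received 4OHT were not analysed here, so what 4OHT itself did and what ERK did cannot be told apart.

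A basement membrane is a thin sheet of laminin trimers and collagen IV, linked by nidogens and the heparan sulphate proteoglycans perlecan and agrin. Cells hold on to it through integrins, which are pairs of an alpha and a beta chain, and through dystroglycan and syndecans. In the early mouse embryo laminin appears before implantation, and the epiblast, the source of embryonic stem cells, comes to rest on such a sheet. Collagen chains are hydroxylated in the endoplasmic reticulum by the P4HA and PLOD enzymes before they are secreted.

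The libraries held between 7295334 and 12168380 counts, and a count of 3 stood for 0.228 to 0.438 CPM (counts scaled to a common library total after TMM normalisation), the highest level that could hide behind a count of 0. Errors are the SD of CPM and the SE of log2 fold changes, over 3 libraries per group. Within each group the libraries of clone c stood further from the other two (chi-square per gene 5.38 to 11.3) than those of clones a and b did from each other (2.29 and 2.44). The ERK target Dusp6 rose from 29.8 ± 3.36 to 131 ± 6.78 CPM after 4OHT. All 10 embryonic stem cell markers were detected, with a summed level of 2819 to 2959 CPM untreated and 2106 to 2551 CPM after 4OHT. Of the 10, 2 rose and 5 fell, against 28.5% and 28.6% of all tested genes. By log2 fold change Zfp42 (0.67) and Pou5f1 (0.36) rose. Nanog (-1.66), Tdgf1 (-1.33), Esrrb (-1.32), Tfcp2l1 (-0.86) and Klf4 (-0.66) fell, and Sox2, Dppa5a and Utf1 did not pass. In bulk libraries such as these, fewer cells transcribing a gene and less new RNA per cell cannot be told apart.

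Of the 39 genes with enough counts to test, 12 rose and 14 fell after 4OHT, and 13 did not pass (edgeR quasi-likelihood test, Benjamini-Hochberg adjusted p below 0.05 over all genes). Among all 13869 tested genes 28.5% rose and 28.6% fell, so the shares of 30.8% and 35.9% among these genes lay near the background. Their median log2 fold change was -0.01, beside 0.00 for all genes. Among the listed genes the roles differed in direction. Of 11 basement membrane genes 8 fell and 1 rose, while of 11 receptor genes 6 rose and 2 fell. The receptor counts were 3 and 2 with scaling by library size, and 1 and 2 with scaling to 13 loci of very high counts. Among all genes 29.7% and 19.9% of the calls were higher under these scalings. Outside the list 4 of 17 basement membrane genes rose and 8 fell, and 5 of 16 receptor genes rose and 4 fell. These shares carry no test of their own. Of the 39 listed genes tested, the groups did not overlap for 12 that were higher and 15 that were lower, against 31.4% and 31.9% of all genes. With scaling by library size alone 7 rose and 17 fell, and the whole table shifted by a median of -0.20. By that scaling 29.2% of the listed calls were higher, near the 29.7% among all genes, against 46.2% of listed calls with TMM.

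**Figure D1:**
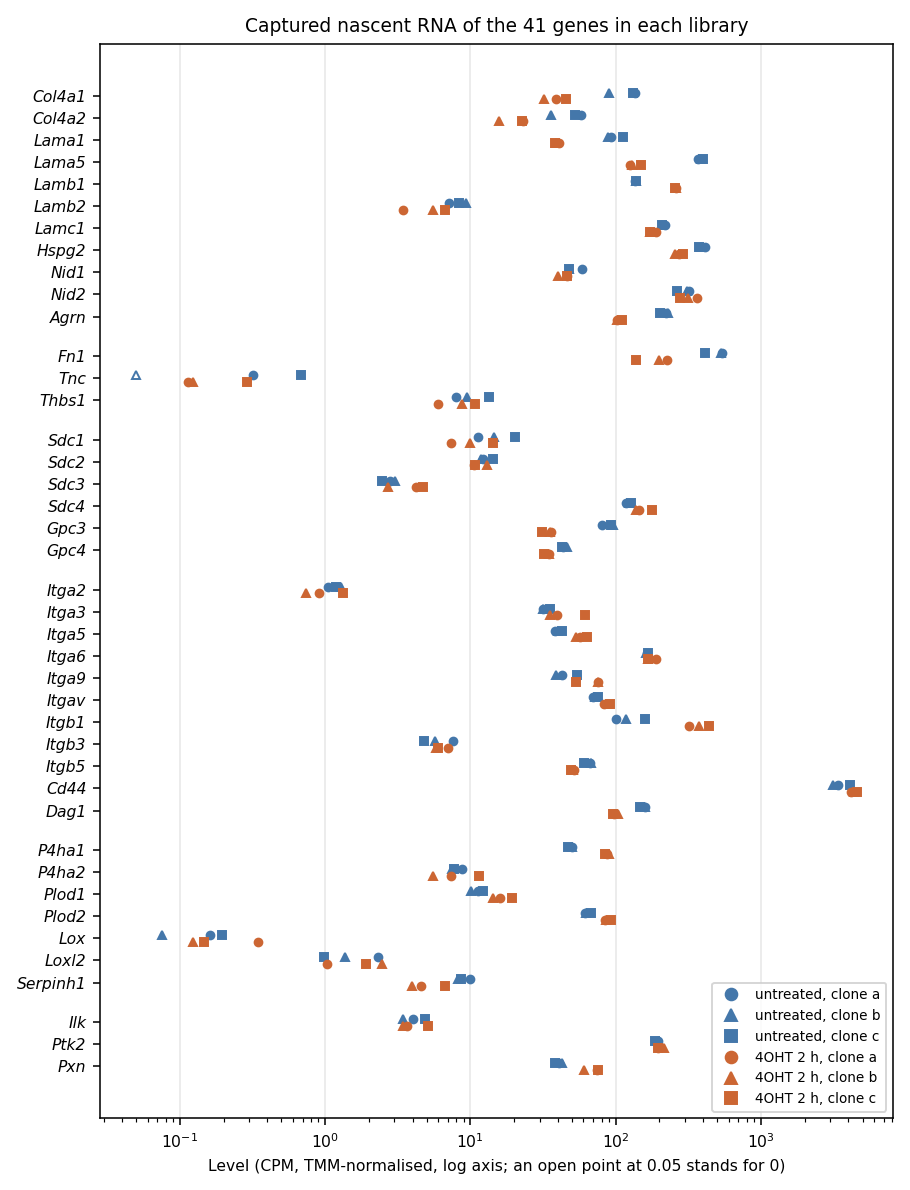
Level of each of the 41 genes in each library (TMM-normalised CPM, log axis), with an open point where the count is 0, untreated libraries in blue, 4OHT libraries in orange and a symbol per clone. Cd44 stands apart at 3109 to 4592 CPM, and Tnc and Lox lie under 1 CPM in every library.

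**Figure D2:**
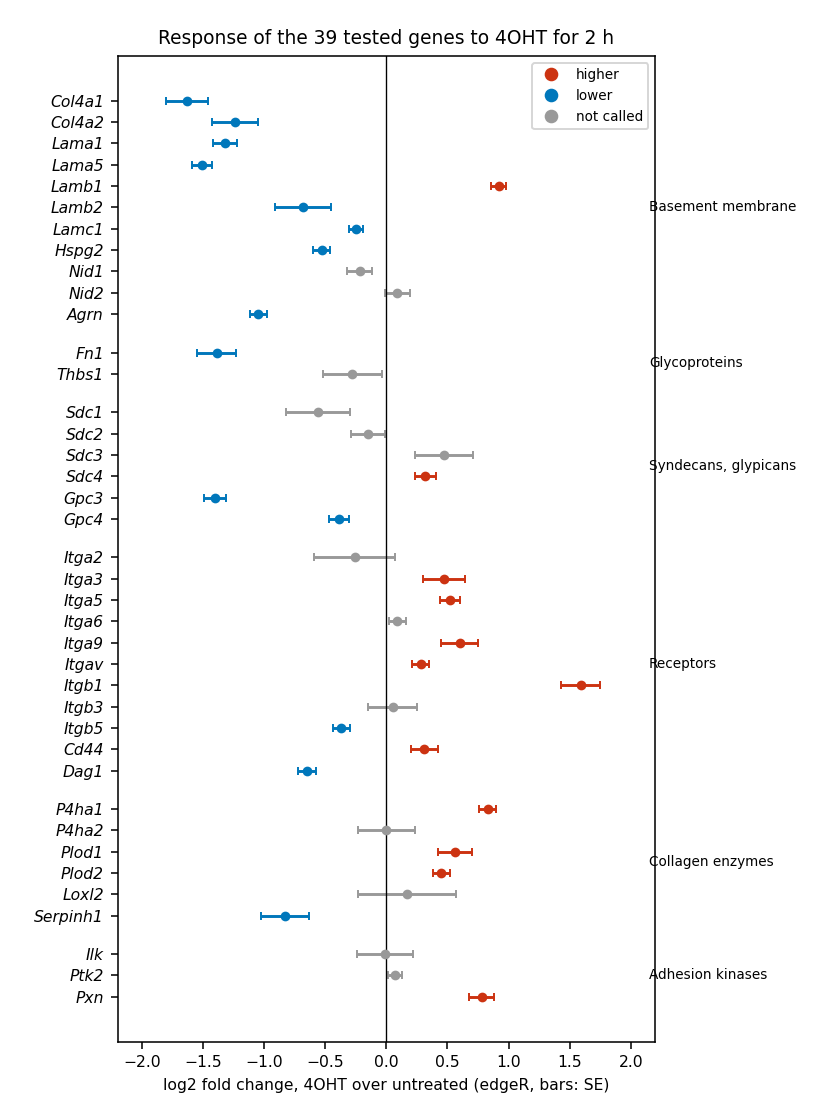
Log2 fold change of the 39 tested genes, 4OHT over untreated, with bars for the SE and colours for the call. Basement membrane genes lie mostly left of 0 and Itgb1, at 1.59, lies furthest to the right.

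Col4a1 and Col4a2, the collagen IV chains on the list, both fell. Collagen IV forms the covalent network of the basement membrane, and its main form joins the chains encoded by Col4a1 and Col4a2. Col4a1 (chromosome 8, 11198423 to 11312826, minus strand, GRCm38) stood at 136, 90.0 and 132 CPM in clones a, b and c untreated and at 38.7, 32.0 and 45.3 CPM after 4OHT. Col4a2 (chromosome 8, 11312805 to 11449287, plus strand) went from 57.6, 35.6 and 52.4 CPM to 23.1, 15.7 and 22.7 CPM. In both genes every treated library was below every untreated one, and clone b was lowest in either group. The log2 fold changes were -1.63 ± 0.17 for Col4a1 (adjusted p = 2.0e-05) and -1.24 ± 0.19 for Col4a2 (adjusted p = 3.4e-04). Per kilobase of exon, Col4a1 had 2.09, 2.24 and 2.23 times the level of Col4a2 untreated, in clones a, b and c, and 1.49, 1.81 and 1.77 times after 4OHT. This ratio was lower in 3 of 3 clones (exact two-sided permutation test over the 6 libraries, p = 0.10, the smallest that 3 against 3 allows; adjusted p = 0.10 over 4 ratios examined).

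These genes lie head to head. In RefSeq, as in GENCODE, the first base of Col4a1 lies 21 bases into Col4a2, so the 22 bases printed here (chr8:11312805-11312826, GRCm38, plus strand) are where transcription of both chains is annotated to start, on opposite strands. Capitals mark a GC box, GGGCGG, a motif known to bind SP1, which both promoter windows hold.
Col4a1/Col4a2 starts: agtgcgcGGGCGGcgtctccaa
Of the scarcer collagen IV chains, Col4a4 rose from 2.08 ± 0.463 to 4.55 ± 1.25 CPM (1.1 ± 0.27, adjusted p = 0.0056). Col4a5 had 6.14 ± 1.26 and 8.78 ± 2.17 CPM (0.52 ± 0.22, adjusted p = 0.064, and 0.0051 with clone as a replicate block), and Col4a3 and Col4a6 were too low to test. Col4a1 also overlaps Gm44716. As it is not given whether the counting used strand, reads in the shared bases cannot be assigned to a chain.

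Laminin chains went in opposite directions. A laminin trimer has 1 alpha, 1 beta and 1 gamma chain, and the embryonic forms combine Lama1 or Lama5 with Lamb1 and Lamc1. Lama5 (chromosome 2, 180176373 to 180225859) had 369, 384 and 400.3 CPM untreated, in clones a, b and c, and 126, 130.0 and 150.2 CPM after 4OHT. Lama1 (chromosome 17, 67697259 to 67822647) had 92.3, 88.6 and 113 CPM untreated and 40.4, 38.9 and 38.3 CPM after 4OHT. Both alpha chains were lower in every treated library than in any untreated one, with log2 fold changes of -1.51 ± 0.08 (adjusted p = 2.3e-07) and -1.32 ± 0.10 (adjusted p = 2.5e-06). The beta chain gene Lamb1 (chromosome 12, 31265234 to 31329644) had 135, 138 and 138 CPM untreated and 259, 260.4 and 258 CPM after 4OHT. It was the only basement membrane gene of the list to rise, and its libraries were nearly level within each group (0.92 ± 0.06, adjusted p = 6.2e-07).

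The gamma chain gene Lamc1, which overlaps Gm38009, moved least of the laminins that passed, from 212 ± 6.0 to 178 ± 8.45 CPM (-0.25 ± 0.06, adjusted p = 0.0057). Lamb2, a beta chain of mature basement membranes, was scarce, with 7.13, 9.26 and 8.33 CPM untreated and 3.43, 5.57 and 6.72 CPM after 4OHT (-0.68 ± 0.23, adjusted p = 0.026). The Lamb2 call was lost without the untreated library of clone b (adjusted p = 0.094), the treated library of clone a (0.10) or b (0.055), or either clone in both groups (0.076 and 0.16), and the Lamc1 call without clone b in both groups (0.077). Per kilobase of exon, the level of Lamb1 was 0.324, 0.325 and 0.297 times the sum of Lama1 and Lama5 in untreated clones a, b and c. After 4OHT it was 1.72, 1.70 and 1.52 times that sum. The level of Lamb1 per kilobase of exon thus went from below that of the alpha chains to above it in 3 of 3 clones (exact two-sided permutation test over 6 libraries, p = 0.10, the smallest possible; adjusted p = 0.10 over 4 ratios). Lamb1 had been called higher and both alpha chains lower on these libraries, so this ratio is not separate support.

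**Figure D3:**
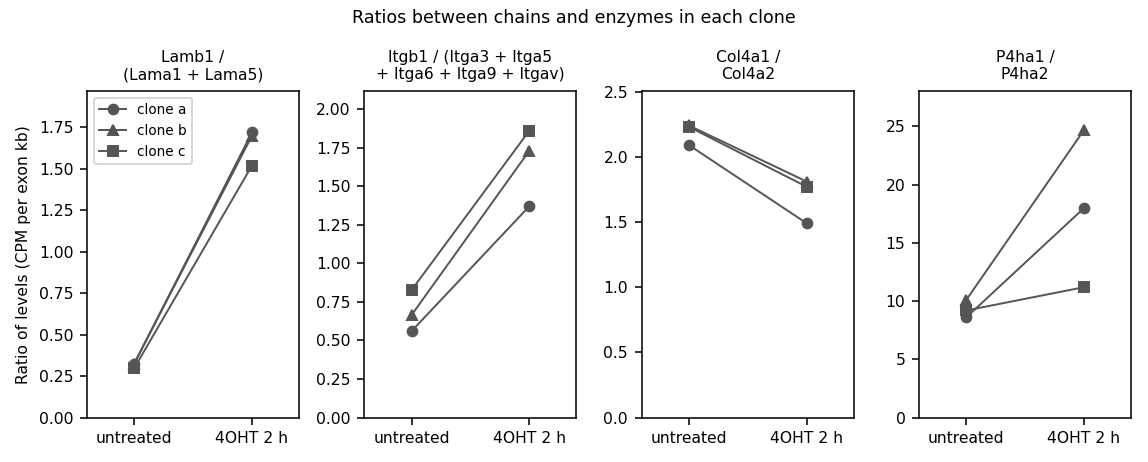
Ratios of levels (CPM per kilobase of exon) in untreated and treated libraries, a line per clone, for Lamb1 over Lama1 plus Lama5, Itgb1 over 5 alpha chains, Col4a1 over Col4a2 and P4ha1 over P4ha2. The laminin ratio rises from 0.297 to 0.325 untreated to 1.52 to 1.72 after 4OHT, and the collagen IV ratio falls in each clone.

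No RefSeq promoter window was at hand for Lama1, an alpha chain that also fell. Itgb1 and P4ha1, described below, are included to set genes that moved in opposite directions side by side. The promoters of Lama5, which fell, and of Lamb1, Itgb1 and P4ha1, which rose, are shown. Each is the RefSeq sequence before the start site on GRCm38, read 5′ to 3′ along the gene and ending where the annotated gene begins, with capitals for GC boxes (GGGCGG on either strand). They come from chr2:180225860-180226109 (minus strand), chr12:31265043-31265233, chr8:128685404-128685653 and chr10:59323046-59323295 (plus strand).
Lama5: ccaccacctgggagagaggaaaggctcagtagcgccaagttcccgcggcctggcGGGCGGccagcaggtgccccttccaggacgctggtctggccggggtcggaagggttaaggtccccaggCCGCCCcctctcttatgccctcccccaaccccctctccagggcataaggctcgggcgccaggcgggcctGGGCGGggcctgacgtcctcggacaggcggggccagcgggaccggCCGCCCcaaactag
Lamb1: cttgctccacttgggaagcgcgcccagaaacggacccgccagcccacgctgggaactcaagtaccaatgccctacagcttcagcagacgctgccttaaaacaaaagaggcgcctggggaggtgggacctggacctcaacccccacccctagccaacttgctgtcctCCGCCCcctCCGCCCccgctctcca
Itgb1: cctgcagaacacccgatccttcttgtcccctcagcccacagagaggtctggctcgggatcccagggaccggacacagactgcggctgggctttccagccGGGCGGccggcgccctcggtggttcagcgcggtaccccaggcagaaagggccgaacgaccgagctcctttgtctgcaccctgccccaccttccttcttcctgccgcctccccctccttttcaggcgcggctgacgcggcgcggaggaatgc
P4ha1: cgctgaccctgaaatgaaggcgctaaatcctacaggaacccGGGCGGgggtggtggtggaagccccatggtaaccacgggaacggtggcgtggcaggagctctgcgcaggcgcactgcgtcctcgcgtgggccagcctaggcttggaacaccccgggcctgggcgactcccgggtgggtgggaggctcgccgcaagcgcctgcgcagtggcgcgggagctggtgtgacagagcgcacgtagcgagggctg
The Lama5 stretch holds 4 GC boxes in 250 bases, and that of Lamb1 holds 2 in 191 bases. Those of Itgb1 and P4ha1 hold 1 each in 250 bases. Whether the number of boxes goes with direction was not tested. RefSeq windows of 300 bases (250 before the start and 50 after) were at hand for 28 of the 41 genes, and 26 of the 28 (92.9%) held a GC box, against 38.2% of 27025 genes and 67.9% of the 10619 of these that were tested here. The ETS core CCGGAA, searched on both strands like the others, was in 6 of 28 windows (21.4%, against 16.7% of all genes and 29.5% of those tested): those of Ilk, Itga3, Itgb1, Nid1, Sdc4 and Serpinh1. The AP-1 motif TGANTCA was in the windows of Itga3 and Itga9 (7.14%, against 8.97% and 6.29%), and the CArG box, the SRF motif, in 0 of 28 (1.81% and 1.57%). These are matches of letters within the windows and were not tested as binding sites.

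Of the genes for the proteins that link the sheet, both proteoglycans fell and neither nidogen passed. Agrn, which encodes the proteoglycan agrin (chromosome 4, 156165290 to 156197488), had 221, 228 and 203 CPM untreated and 102, 102 and 111 CPM after 4OHT in clones a, b and c, so that each clone ended at about the same level (-1.05 ± 0.07, adjusted p = 1.1e-06). Hspg2, which encodes perlecan, fell from 391 ± 18.6 to 272 ± 17.8 CPM (-0.53 ± 0.07, adjusted p = 1.3e-04). The nidogens bridge laminin and collagen IV. Nid2 had 318, 311 and 265 CPM untreated and 360.3, 316 and 278 CPM after 4OHT, and these ranges overlap (0.09 ± 0.10, adjusted p = 0.46). Nid2 overlaps Rtraf. Nid1 had 51.3 ± 6.29 and 44.1 ± 3.72 CPM (-0.22 ± 0.10, adjusted p = 0.095), and passed with clone as a replicate block (adjusted p = 0.0085), without clone c in both groups (0.016) and by library size (-0.42, adjusted p = 0.0066).

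Primitive and parietal endoderm, which deposit basement membrane in the embryo, were followed through 14 markers. Their summed level was 201 to 236 CPM untreated and 126 to 135 CPM after 4OHT. Of 9 tested 2 rose and 2 fell, against 28.5% and 28.6% of all tested genes. Plat rose (2.2 to 2.55 CPM untreated, 8.57 to 17.2 CPM after 4OHT), as did Cubn (2.51 to 4.02 and 4.91 to 6.58 CPM). Lrp2 and Dab2 fell. Most of the sum came from Lrp2 (147 to 171 CPM untreated, 85.3 to 94.3 CPM after 4OHT) and Dab2 (35.9 to 41.4 and 7.75 to 11.5 CPM). The endoderm factors Sox17, Sox7 and Foxa2 were at most 0.531 CPM in any library, Gata6 was at 1.61 to 3.26 CPM and Gata4 at 3.21 to 7.01 CPM, while Thbd had at most 3 counts. The part of such cells in the falls of the basement membrane genes was not tested.

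Fibronectin fell strongly among the matrix glycoproteins. Fn1 (chromosome 1, 71585520 to 71653200), whose product forms fibrils bound by integrins containing Itga5 or Itgav, had 539, 527 and 409.6 CPM untreated, in clones a, b and c, and 227, 198 and 137 CPM after 4OHT. All treated libraries were under all untreated ones, and clone c was lowest in both groups (-1.39 ± 0.16, adjusted p = 5.6e-05). Thrombospondin 1, encoded by Thbs1, had 7.94, 9.49 and 13.4 CPM untreated and 5.94, 8.78 and 10.8 CPM after 4OHT. Its groups overlap (-0.28 ± 0.24, adjusted p = 0.35), although it passed with scaling to the 13 high-count loci (-0.57, adjusted p = 0.015). Tnc, which encodes tenascin C, had 4, 0 and 7 counts untreated and 1, 1 and 2 after 4OHT and was too low to test. A count of 0 in the untreated library of clone b allows up to 0.228 CPM.

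Of the 10 fibroblast and feeder markers, 6 (Col1a2, Col3a1, Dcn, Lum, S100a4 and Prrx1) had at most 3 counts in every library. The summed level of all 10 was 2.96 to 3.92 CPM untreated and 20.7 to 24.8 CPM after 4OHT, where Twist1 made up 15.8 to 19.4 CPM. Of the 3 tested, Twist1 and Col1a1 rose and Pdgfrb fell, where 28.5% of all tested genes rose and 28.6% fell. The 8 trophoblast markers summed to 117 to 120.5 CPM untreated and 83.2 to 99.1 CPM after 4OHT. Of 6 tested 1 rose and 1 fell, against 28.5% and 28.6% of all tested genes. Hand1 rose, from 0.240 to 0.588 CPM untreated to 2.10 to 2.40 CPM after 4OHT. Tfap2c, the largest part of the sum, fell from 71.0 to 85.6 CPM untreated to 38.7 to 54.8 CPM. The part of either cell type in these results was not tested.

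Among the cell-surface proteoglycans both glypicans fell under each scaling, while of 4 syndecans 1 rose, or 0 rose and 2 fell by library size and by the high-count loci. Gpc3 (chromosome X, 52272426 to 52613950), a glypican tethered to the membrane by a lipid anchor and a modulator of growth factor signals, had 80.6, 96.3 and 93.2 CPM untreated, in clones a, b and c, and 35.9, 35.1 and 31.0 CPM after 4OHT. The groups are far apart (-1.40 ± 0.09, adjusted p = 1.0e-06). Its neighbour on the X chromosome, Gpc4 (52053021 to 52165252), moved less, from 43.6, 46.2 and 43.0 CPM to 34.6, 34.8 and 31.9 CPM (-0.39 ± 0.08, adjusted p = 0.0017).

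Syndecans are transmembrane heparan sulphate proteoglycans that act beside integrins. Sdc4, the syndecan of focal adhesions, stood highest of them per kilobase of exon (48.3 CPM untreated, against 4.04 for Sdc1) and rose from 123 ± 4.80 to 153 ± 21.9 CPM (0.32 ± 0.09, adjusted p = 0.015). This call was lost without the untreated library of clone a (0.29, adjusted p = 0.052) or without clone a in both groups (0.33, 0.060), with library size scaling (0.12) and with scaling to the high-count loci described at Cd44 (0.01). Sdc1 had 11.2, 14.6 and 20.4 CPM untreated and 7.31, 9.90 and 14.3 CPM after 4OHT, lower in each clone but overlapping between groups (-0.56 ± 0.26, adjusted p = 0.089). It passed with clone as a replicate block (adjusted p = 3.7e-04), without the untreated library of clone a (0.028), without clone c after 4OHT (0.022) or in both groups (0.0086), with no filter on low counts (0.034) and by library size (-0.76, 0.025). Sdc2 had 12.8 ± 1.24 and 11.5 ± 1.32 CPM (-0.15 ± 0.14, adjusted p = 0.36, and -0.35 with adjusted p = 0.041 by library size). Sdc3 had 2.76 ± 0.295 and 3.87 ± 1.02 CPM (0.47 ± 0.24, adjusted p = 0.12), and passed without the treated library of clone b (0.67, adjusted p = 0.036).

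Among the 11 listed receptors the largest rise was that of the shared integrin beta chain. Itgb1 (chromosome 8, 128685654 to 128733200), the beta chain that pairs with most alpha chains for laminin, collagen and fibronectin, had 99.7, 117 and 159 CPM in untreated clones a, b and c. After 4OHT it had 318, 377 and 436 CPM. The treated libraries all lay well above the untreated ones, and clone c was highest in both groups (1.59 ± 0.16, adjusted p = 2.0e-05). Itgb1 was the single gene of the list to rise by at least 1 on the log2 scale, a size reached upward by 6.83% of all genes, while 7 fell by as much against 9.55%. By contrast Itgb5, a beta chain of vitronectin receptors, fell from 64.9 ± 4.05 to 50.4 ± 1.04 CPM (-0.37 ± 0.07, adjusted p = 0.0016), and Itgb3, at 6.04 ± 1.44 and 6.26 ± 0.621 CPM, did not pass (0.05 ± 0.20, adjusted p = 0.86).

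The alpha chains on the list moved less than Itgb1. The fibronectin receptor chain Itga5 rose from 40.3 ± 2.10 to 57.7 ± 4.95 CPM (0.52 ± 0.08, adjusted p = 4.6e-04) and Itgav, an alpha chain of vitronectin and fibronectin receptors, from 72.5 ± 2.42 to 87.8 ± 4.08 CPM (0.28 ± 0.07, adjusted p = 0.0050). Itga9, a receptor chain for tenascin and other ligands, had 42.6, 38.6 and 54.1 CPM untreated and 75.3, 75.3 and 52.9 CPM after 4OHT. It rose in the fit (0.60 ± 0.15, adjusted p = 0.0066), but clones a and b differed by 0.82 and 0.96 and clone c by -0.03, and the call was lost without clone a (0.48, adjusted p = 0.070) or clone b (0.41, 0.12) in both groups. The laminin receptor chain Itga3 had 31.4, 31.8 and 35.2 CPM untreated and 39.6, 35.5 and 61.5 CPM after 4OHT (0.47 ± 0.17, adjusted p = 0.040). Most of that rise was in clone c, and without its treated library the change was 0.20 (adjusted p = 0.10). The call was also lost without the untreated library of clone a (adjusted p = 0.092), b (0.10) or c (0.054), and without any 1 of the clones in both groups (0.053 to 0.075), and with limma-voom (0.42, adjusted p = 0.052).

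Itga6, the other main laminin receptor chain of embryonic stem cells, did not pass. It had 165, 161 and 166 CPM untreated and 189, 166 and 166 CPM after 4OHT (0.09 ± 0.07, adjusted p = 0.31). Every treated library lay above every untreated one, but those of clones b and c by less than these rounded values show. Itga2, a collagen receptor chain, was near 1 CPM in both groups (-0.26 ± 0.33, adjusted p = 0.54). Per kilobase of exon, Itgb1 stood at 0.560, 0.664 and 0.826 times the summed Itga3, Itga5, Itga6, Itga9 and Itgav untreated, in clones a, b and c, and at 1.37, 1.73 and 1.86 times after 4OHT (exact two-sided permutation test, p = 0.10, the smallest possible; adjusted p = 0.10 over 4 ratios). The rises of these alpha chains depended on the scaling. By library size Itga5 and Itga9 still passed but Itga3 (0.27) and Itgav (0.08) did not. With scaling to the high-count loci no alpha chain passed, and Itgav turned to -0.03. The Itgav call was also lost without clone b in both groups (0.26, adjusted p = 0.075).

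The other matrix receptors on the list are dystroglycan and CD44. Dag1 (chromosome 9, 108204634 to 108263958), which encodes the laminin receptor dystroglycan, had 160.1, 158 and 147 CPM untreated and 97.3, 104 and 95.4 CPM after 4OHT in clones a, b and c. The treated libraries were all lower (-0.65 ± 0.07, adjusted p = 1.9e-05). Cd44 (chromosome 2, 102811141 to 102901665), the hyaluronan receptor, had 3390.5, 3109 and 4098 CPM untreated and 4177, 4342 and 4592 CPM after 4OHT (0.31 ± 0.11, adjusted p = 0.034). It held 51.3% of all counts of the 41 genes and 11.6 times the CPM of the next of them. Its treated libraries all lay above the untreated ones, by little where untreated clone c meets treated clone a.

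Cd44 is 1 of 13 loci with a mean of at least 3000 CPM, a limit set after the data had been seen. The other 12, among them Cdk8, Lars2 and Jarid2, had log2 fold changes of 0.20 to 0.38, a range that takes in the value of Cd44. Since Cd44 is among these loci, scaling to them sets it near 0 by construction, and that value is not a test of it. By library size Cd44 was at 0.11 (adjusted p = 0.38). The Cd44 call was lost without clone a or b in both groups (adjusted p = 0.18 and 0.33), on leaving out untreated clone a (0.11) or b (0.15), and without the treated library of clone a (0.054), b (0.090) or c (0.063). Whether the reads at Cd44 come from its own transcript was not tested.

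**Figure D4:**
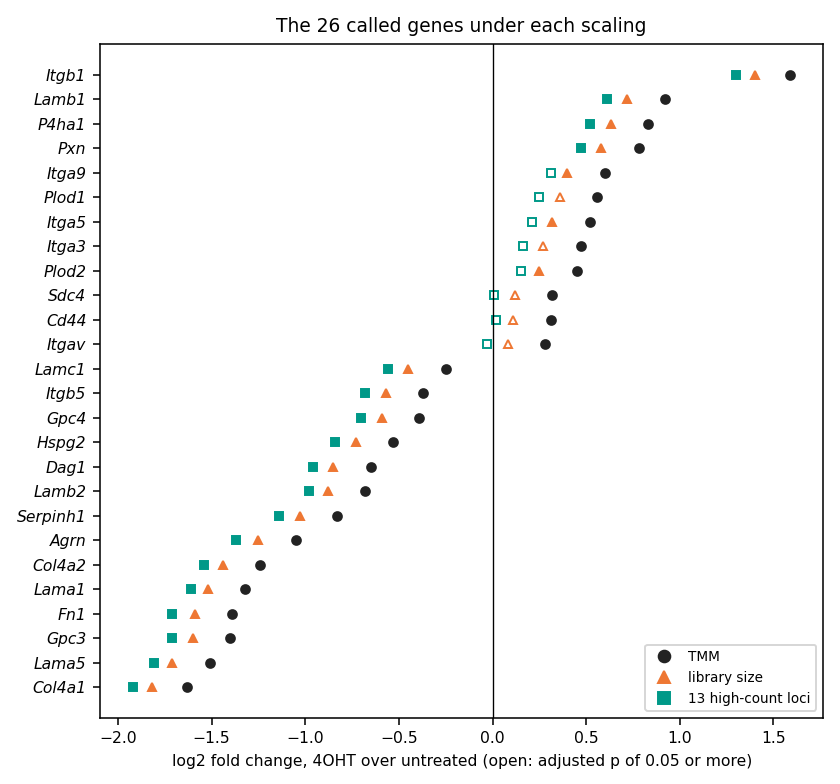
Log2 fold change of the 26 called genes, 4OHT over untreated, with TMM, with library size and with scaling to the 13 high-count loci (open symbols did not pass). The 14 genes that fell and Itgb1, Lamb1, P4ha1 and Pxn passed under each scaling, and Itgav and Sdc4 came to lie near 0 under the last. Cd44 is itself among the 13 loci, which sets it near 0 there.

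Of the collagen-modifying enzymes tested, P4ha1, Plod1 and Plod2 rose and P4ha2 and Loxl2 did not pass, while the collagen chaperone gene Serpinh1 fell. By library size P4ha1 and Plod2 still rose, and with scaling to the high-count loci P4ha1 did. P4ha1 (chromosome 10, 59323296 to 59373304), a catalytic subunit of collagen prolyl 4-hydroxylase, had 50.0, 50.1 and 46.9 CPM untreated, in clones a, b and c, and 86.8, 90.6 and 84.9 CPM after 4OHT. The libraries of each group lay close together and the groups well apart (0.83 ± 0.07, adjusted p = 3.8e-06). Its paralogue P4ha2 had 8.82, 7.52 and 7.74 CPM untreated and 7.31, 5.57 and 11.5 CPM after 4OHT and did not pass (0.00 ± 0.23, adjusted p = 1.0). The ratio of P4ha1 to P4ha2 per kilobase of exon was 8.60, 10.1 and 9.20 untreated and 18.0, 24.7 and 11.2 after 4OHT, higher in 3 of 3 clones but by little in clone c (exact two-sided permutation test, p = 0.10, the smallest possible; adjusted p = 0.10 over 4 ratios).

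Lysyl hydroxylases prepare collagen for cross-linking. Plod2 rose from 63.9 ± 3.51 to 87.5 ± 4.28 CPM (0.45 ± 0.07, adjusted p = 3.6e-04) and Plod1 from 11.2 ± 1.08 to 16.5 ± 2.66 CPM (0.56 ± 0.14, adjusted p = 0.0074). Plod1 was not called by library size (0.36, adjusted p = 0.052), nor was either with scaling to the high-count loci (0.15 for Plod2 and 0.25 for Plod1). Plod2 overlaps Gm38391. The third lysyl hydroxylase gene, Plod3, which is outside the list and overlaps Znhit1, rose from 19.7 ± 2.80 to 36.4 ± 6.55 CPM (0.88 ± 0.15, adjusted p = 4.9e-04). Serpinh1, which encodes HSP47, fell from 9.94, 8.27 and 8.62 CPM to 4.57, 3.96 and 6.72 CPM (-0.83 ± 0.20, adjusted p = 0.0049), a call lost without clone a (adjusted p = 0.065) or clone b (0.051) in both groups. Lox and Loxl2 encode lysyl oxidases, which cross-link secreted collagen, and both had few counts. Loxl2, which overlaps Gm37513, had 1.56 ± 0.692 and 1.80 ± 0.728 CPM (0.17 ± 0.40, adjusted p = 0.74), and Lox had 2, 1 and 2 counts untreated and 3, 1 and 1 after 4OHT and was not tested.

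Of the adhesion kinases and the adaptor, Pxn rose and the others did not pass. Pxn (chromosome 5, 115506676 to 115555987), which encodes the focal adhesion scaffold paxillin, had 40.7, 42.7 and 38.2 CPM untreated, in clones a, b and c, and 74.1, 60.4 and 75.4 CPM after 4OHT. Every treated library was above every untreated one (0.78 ± 0.10, adjusted p = 6.6e-05). Ptk2, which encodes focal adhesion kinase, had 194, 198 and 186 CPM untreated and 197, 214 and 197 CPM after 4OHT, with overlapping groups (0.07 ± 0.06, adjusted p = 0.34). Ilk, the integrin-linked pseudokinase, had 4.11 ± 0.747 and 4.08 ± 0.903 CPM (-0.01 ± 0.23, adjusted p = 0.97). Its span overlaps Rrp8 and Taf10.

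Levels of different genes can be compared per length, but whether exons or whole genes were counted is not known. Across 13744 tested genes untreated CPM had a Spearman's rho of 0.334 with exon length and 0.236 with gene span, which does not settle it. By exon length, untreated Cd44 stood highest of the list at 521 CPM per kilobase of exon, followed by Nid2 (57.6), Sdc4 (48.3), Fn1 (42.1), Lama5 (33.8), Gpc3 (33.5) and Itgb1 (30.7). After 4OHT the order below Cd44 (645) was Itgb1 (92.4), Nid2 (61.4), Sdc4 (60.2) and Lamb1 (26.2), while Fn1 was at 16.0, Gpc3 at 12.6 and Lama5 at 11.9. By gene span the untreated order was different, with Cd44 (39 CPM per kilobase of span) ahead of Lama5 (7.77), Fn1 (7.27), Agrn (6.75), Sdc4 (6.27) and Nid2 (4.93), and Itgb1 at 2.64.

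The clones differed beside the treatment in 9 of the 39 genes (23.1%, against 12.6% of all genes, joint edgeR test of the clone terms). Fn1 (adjusted p = 4.7e-05) and Nid2 (adjusted p = 0.0015) were lowest in clone c in both groups. Itgb1 (adjusted p = 2.4e-05), Itga3 (adjusted p = 0.018), Sdc1 (adjusted p = 7.9e-04), Thbs1 (adjusted p = 0.0095) and Cd44 (adjusted p = 0.050) were highest there. Col4a1 (adjusted p = 1.7e-04) and Col4a2 (adjusted p = 2.0e-04) were lowest in clone b. With 1 library per clone and group, a clone-specific response could not be fitted. Of the 26 called genes, 25 moved the same way in 3 of 3 clones, all but Itga9, a count largely set by calling them on these libraries.

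Other genes of the same roles, 107 in the table of which 88 were tested, gave 24 that rose (27.3%) and 31 that fell (35.2%), against 28.5% and 28.6% of all genes, with a median of -0.10. By library size 22 rose and 39 fell (36.1% of calls higher, against 29.7% of the calls among all genes). Among 17 other basement membrane genes 4 rose and 8 fell. Sparc, a matrix protein that binds collagen IV, rose from 59.9 ± 8.85 to 356 ± 31.1 CPM (2.58 ± 0.11), and the laminin alpha chains Lama3 and Lama4 rose from 5.23 ± 0.273 to 18.6 ± 2.96 CPM (1.82 ± 0.15) and from 3.87 ± 1.25 to 10.5 ± 0.715 CPM (1.47 ± 0.21). Col18a1, the basement membrane collagen that yields endostatin and which overlaps Slc19a1, fell from 298 ± 46.2 to 172 ± 19.2 CPM (-0.79 ± 0.12).

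Of 15 other glycoproteins 3 rose and 4 fell, or 3 and 8 by library size. Among all genes 28.5% rose and 28.6% fell, or 17.4% and 41% by library size, so that scaling gave more falls in the whole table too. The matricellular genes Cyr61 (1.30 ± 0.18) and Ctgf (0.94 ± 0.17) rose, and Efemp1, a fibulin (-2.78 ± 0.30), and the proteoglycan Vcan (-0.78 ± 0.13) fell. Among 16 other receptors 5 rose and 4 fell (31.2% and 25.0%). With scaling to the high-count loci 4 rose and 6 fell, where 9.94% of all genes rose and 40.0% fell. The collagen receptor kinase Ddr1 rose from 27.8 ± 1.56 to 82.4 ± 10.7 CPM (1.57 ± 0.10), and so did the integrin chains Itga7 (2.28 ± 0.26), which overlaps Mettl7b, Itga8 (1.77 ± 0.16), which overlaps Gm37701, and Itgb8 (1.34 ± 0.20), from 8.15 ± 1.96 CPM or less. Of 3 other glypicans Gpc6 fell (-0.47 ± 0.12), a call lost without clone b in both groups (adjusted p = 0.12).

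Of 14 other collagen-processing genes 4 rose and 6 fell (28.6% and 42.9%, against 28.5% and 28.6% of all genes). The procollagen proteinase Bmp1 rose from 4.25 ± 1.28 to 22.1 ± 5.87 CPM (2.39 ± 0.24) and P4hb, the partner subunit of P4ha1 in the prolyl hydroxylase, from 84.7 ± 5.79 to 150.2 ± 19.2 CPM (0.83 ± 0.09). Crtap (-0.84 ± 0.13) and Ppib (-0.65 ± 0.09), which act together in collagen prolyl 3-hydroxylation, fell, and Ppib overlaps Snx22. Of 23 other adhesion genes 8 rose and 8 fell (34.8% each). With scaling to the high-count loci 4 rose and 11 fell, where 9.94% of all genes rose and 40.0% fell. Tns1, a tensin that ties integrins to actin, rose from 57.8 ± 0.839 to 173 ± 31.5 CPM (1.58 ± 0.12), Zyx, which overlaps Epha1, by 1.06 ± 0.13, and the kindlin gene Fermt2, which overlaps 9630050E16Rik, by 0.89 ± 0.10. Parvb, a partner of the integrin-linked kinase, fell from 58.5 ± 3.17 to 25.2 ± 3.04 CPM (-1.21 ± 0.10). The genes named here from Sparc to Parvb each passed at adjusted p of 0.0081 or less.

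**Figure D5:**
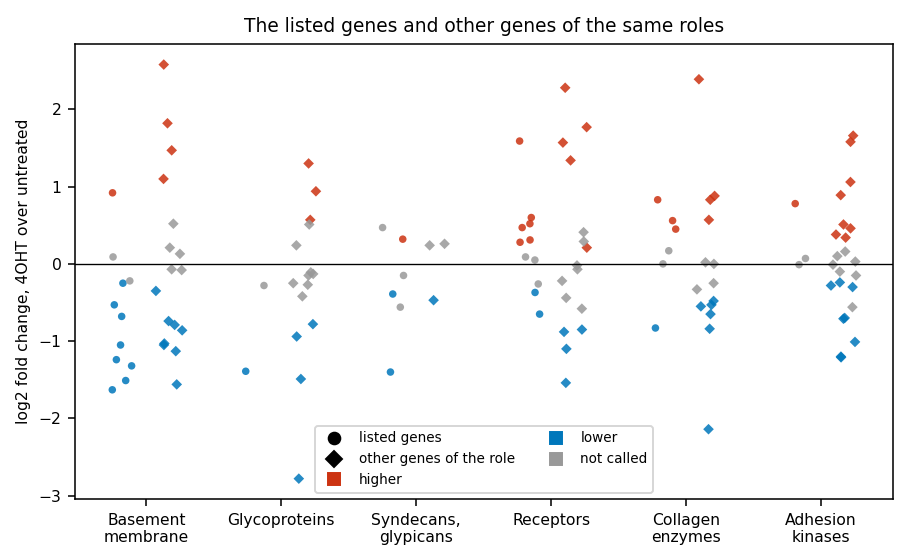
Log2 fold change, 4OHT over untreated, of the tested listed genes (circles) and of other genes of the same roles (diamonds), coloured by call and grouped by role. Among the basement membrane genes the listed ones reach from -1.63 to 0.92, and the others from -1.56 to 2.58 with Sparc on top.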

How the data were processed

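Nascent RNA was captured by click chemistry on ethynyl uridine and sequenced from 6 libraries (NEB Next Ultra 2 kit), per the labels' protocols. The authors deposited raw counts, not normalised, for each symbol. STAR, featureCounts and mm10 are named in the submitters' processing notes. Strand use and whether exons or whole genes were counted is not given in the sources used here. Columns were tied to samples by clone letter and time.

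The filterByExpr step (at least 10 counts, 15 in total) left 13869 genes, which were scaled by TMM and tested with glmQLFit and glmQLFTest in edgeR 4.0.16 (R 4.3.3), 3 against 3 libraries without a clone term, with Benjamini-Hochberg adjustment over all genes and calls at adjusted p below 0.05. Each SE is the log2 fold change divided by the square root of F. DESeq2 1.42.0 and limma 3.58.1 (voom) were alternatives. The procedure was checked on simulated counts with the same dispersion for every gene and no difference between clones. That check therefore does not cover the scatter between the clones seen here. Positions, lengths and overlaps came from GENCODE M21 (GRCm38, the assembly of mm10), promoters from RefSeq (GRCm38.p6). The level behind a count of 0 reflects counting error alone.

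Nothing says that clones were cultured separately, so p-values reflect how far these libraries scatter, which may be technical. The clone letters pair the libraries because both groups hold the same lines. Deviations from the group mean, untreated against treated, had correlations of 0.282 (clone a), 0.165 (b) and 0.357 (c). Between libraries of different letters they were -0.283 to 0.068. Clone as a replicate block was an alternative. The 41 genes, the wider list, the marker lists and the rule for naming were chosen with earlier results of these data known. The 4 ratios were not among the planned results, and they set genes against each other whose changes were tested on the same libraries. Their permutation tests are therefore not separate support. All 41 genes are named; library values are given for those called with a log2 fold change of at least 1 in size, for Cd44, and for up to 2 more per role (smallest adjusted p among called, highest CPM among the rest). Library values of Lamb2, Itga3, Itga9, Serpinh1, Tnc and Lox were added after their values were seen. Of the wider list, up to 4 called genes per role with the smallest adjusted p are named. Col4a4, Col4a5 and Plod3 were named after their values were seen.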

Additional observations from a re-analysis of the deposited data

How the results depend on the processing

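Of the 26 called genes, 15 kept direction and call under all 17 alternatives (other scalings, filters and tests, the clone block, and each library or clone left out): Col4a1, Col4a2, Lama1, Lama5, Lamb1, Hspg2, Agrn, Fn1, Gpc3, Gpc4, Itgb1, Itgb5, Dag1, P4ha1 and Pxn. The number that rose was 7 with library size scaling and 4 with the high-count loci (added after seeing the data, and holding Cd44 itself), against 12, since these scalings moved the median of all genes to -0.20 and -0.31; under the latter Itgav reversed to -0.03 without passing. With a library or clone left out 8 to 12 rose. The number that fell was 11 to 18 over the alternatives. With clone as a replicate block 12 rose and 16 fell, adding Nid1 and Sdc1, and it changed no other call of the 41 (in the wider list 28 rose and 34 fell). Depth limits Tnc, Lox, Itga2 and Loxl2, all under 2 CPM on average in each group.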
